A study of Mus musculus with 12 samples.

Results

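The mitochondrial carrier family, written Slc25a in mouse gene symbols, was followed over all 12 arrays of a study of liver and quadriceps muscle. Its members were all probe sets, the groups of short probes that stand for a transcript on the array, whose single gene symbol starts with Slc25a. These were 93 of 45037 probe sets, and they stood for 44 of 18193 genes. A further probe set that names an Slc25a gene together with another gene was left out. Of the 44 genes, 21 had 1 probe set and the others had up to 8. The probe set with the highest mean over the 12 arrays stood for its gene.

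Total RNA came from mutant and control mice on the C57BL/6 strain, with 3 arrays each for mutant liver, control liver, mutant quadriceps muscle and control quadriceps muscle. The mutants carried a hypomorphic mutation, one that lowers gene function, in PGC1beta, a transcriptional coactivator encoded by Ppargc1b that acts on genes of mitochondria and lipid metabolism. The study compared the mutation's effect in each tissue. The sources used here state no age, sex or diet, nor what the mutation alters in the gene. Whether the arrays of a group stand for separate mice is also unstated, so the p-values rest on a spread between samples that may be technical in part.

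Mitochondrial carriers are small proteins of the inner mitochondrial membrane, a barrier that ions and metabolites cannot cross unaided. Each moves a defined set of substrates, often by exchanging a molecule from the matrix for another from the cytosol: ATP for ADP, aspartate for glutamate, citrate or other carboxylates for malate. In liver they link mitochondria to the urea cycle, glucose synthesis, lipid synthesis and fatty acid oxidation. In muscle the exchange of ADP for ATP supplies contraction.

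Values below are linear fluorescence intensity. For mutant against control they were normalised by quantiles within a tissue, and for liver against muscle by quantiles over all 12 arrays, so the 2 scales differ slightly. Differences are log2 differences of intensity + 16, an added constant that damps dim probe sets and understates their changes, and adjusted p-values are from limma over all genes tested, with a threshold of 0.05. No level of a gene was set against that of another gene, since probe sets differ in brightness for reasons other than RNA amount. In whole tissue, fewer cells of a type and less RNA per cell cannot be told apart.

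Ppargc1b read 402, 491 and 202 in mutant livers, against 544, 282 and 479 in control livers, a difference of -0.28 (SE 0.32, adjusted p = 0.692), and in muscle its difference was 0.06 (SE 0.17, adjusted p = 0.998). The groups overlapped in both tissues, and no source used here places the mutation on the transcript. The 6 measured hepatocyte markers and the 7 muscle markers separated the tissues. Hepatocyte marker sums were 61348 to 64955 in mutant liver and 68059 to 68764 in control liver, against 327 to 627 in mutant muscle and 236 to 669 in control muscle. The log2 ratio of 3′ to 5′ signal, averaged over the array's controls for Actb, Gapdh and Pcx, was 1.90, 0.90 and 1.87 in mutant livers and 0.74, 0.97 and 0.50 in control livers. Mutant livers 1 and 3 thus stood apart in a measure of RNA integrity. In muscle it was 0.33 to 0.56 in mutants and 0.40 to 0.52 in controls.

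Most carriers differed between liver and muscle, and more of them were higher in liver. Of 41 carrier genes tested, 30 differed between mutant liver and mutant muscle, 20 higher and 10 lower in liver, where 56.3% of all genes tested differed, 28.8% higher and 27.5% lower. Between control liver and control muscle 27 of 41 differed, 20 higher and 7 lower in liver, against 54.3% of all genes. The shares of carriers higher in control liver and lower in it were 48.8% and 17.1%, and those of all genes were 26% and 28.3%. The median liver minus muscle difference was 0.54 over the carriers and 0.06 over all genes in mutants, and 0.54 and -0.0019 in controls. With an added constant of 64 the carriers' median was 0.28 in mutants and 0.46 in controls. In all, 25 genes passed in both genotypes and each of them had the same sign in both. Slc25a18, Slc25a31 and Slc25a54 were too dim in both tissues to be tested. A gene was tested here if it was bright enough in at least 1 tissue. Slc25a14, Slc25a24 and Slc25a27 entered through muscle alone, and Slc25a13 and Slc25a41 through liver alone. For these genes the filter drew on the same tissue levels that were then compared.

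**Figure D1:**
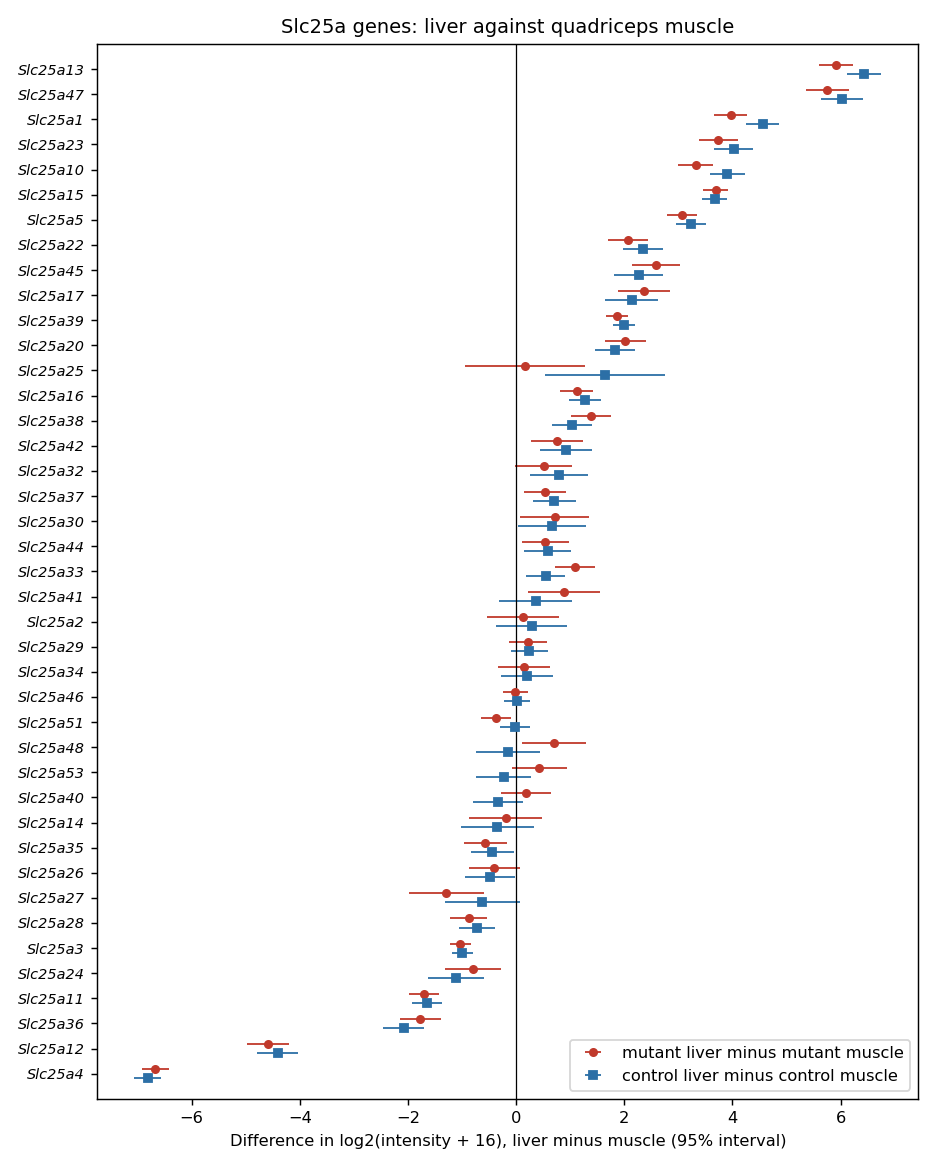
Liver minus muscle difference in log2(intensity + 16) of the 41 tested carrier genes, in mutants (red circles) and controls (blue squares), with 95% intervals. The genes are ordered by the difference in controls, from 6.43 for Slc25a13 at the top to -6.81 for Slc25a4 at the bottom, and the 2 genotypes lie close together for most of them.

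Among adenine nucleotide carriers, which exchange ATP and ADP or ATP-Mg and phosphate, 4 of 7 tested genes were higher and 2 lower in liver than in muscle, in each genotype. The ADP/ATP exchangers Slc25a4 (ANT1) and Slc25a5 (ANT2) went opposite ways. Slc25a4 read 80.9, 85.7 and 78.9 in mutant livers, against 9804, 10078 and 9939.5 in mutant muscles, and 71.8, 65.1 and 95.9 in control livers, against 10384, 10484 and 10301 in control muscles. The muscle arrays were far brighter than the liver arrays, without overlap. The liver minus muscle differences of -6.67 in mutants (SE 0.12, adjusted p = 1.40e-16) and -6.81 in controls (SE 0.12, adjusted p = 1.03e-16) were the lowest of the family. Slc25a5 read 3232, 3469 and 3300.4 in mutant livers, against 331, 394 and 428 in mutant muscles, and 3699, 3905 and 4875 in control livers, against 419, 379 and 488 in control muscles. All 6 liver arrays lay above all 6 muscle arrays, with liver minus muscle differences of 3.07 in mutants (SE 0.13, adjusted p = 5.11e-12) and 3.23 in controls (SE 0.13, adjusted p = 2.62e-12). Slc25a31 (ANT4), the isoform of male germ cells, read at most 9.48 on any array and was not tested.

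Because these isoforms gave opposite tissue patterns, the 250 bases before their transcription start are shown, from RefSeq on the GRCm38.p6 build. They are written 5′ to 3′ on the gene's strand, in lower case, with the letters CCGGAAG of an ETS factor motif in capitals. The Slc25a4 window is chr8:46211063-46211312 on the minus strand and the Slc25a5 window is chrX:36795347-36795596 on the plus strand.
Slc25a4: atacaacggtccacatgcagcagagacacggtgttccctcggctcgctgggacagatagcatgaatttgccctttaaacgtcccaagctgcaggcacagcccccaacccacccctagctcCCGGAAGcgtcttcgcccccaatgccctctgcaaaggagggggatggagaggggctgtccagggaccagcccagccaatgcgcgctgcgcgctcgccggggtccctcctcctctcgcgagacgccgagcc
Slc25a5: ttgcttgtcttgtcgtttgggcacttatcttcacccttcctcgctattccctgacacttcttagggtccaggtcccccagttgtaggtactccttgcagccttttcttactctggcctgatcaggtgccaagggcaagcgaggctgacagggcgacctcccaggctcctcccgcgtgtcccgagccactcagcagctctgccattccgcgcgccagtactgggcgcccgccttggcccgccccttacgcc
The Slc25a4 window held CCGGAAG 1 time, overlapping no other searched motif, and the Slc25a5 window held none of the 5 motifs searched. The search of carrier windows covered 43 windows of 34 of the 44 genes, and the remaining carriers were left out. CCGGAAG on either strand was in 6 of the 43, or 14.0%, against 6.91% of 32851 windows of all genes. The carrier and all-gene shares here may rest on sets of windows that were not chosen alike, so they are descriptive only. The motif stood before Slc25a3, Slc25a4, Slc25a17, Slc25a20, Slc25a38 and Slc25a54. AAGGTCA, an estrogen-related receptor motif, was in 1 window (Slc25a34), or 2.33%, against 4.08% of all. The NRF1 motif, GCGCA and GCGC with any base between them, was in 2 (Slc25a3 and Slc25a31), or 4.65%, against 3.74%. The E-box CAGCTG was in 4 windows of 3 genes, or 9.3%, against 13.0%, and the C/EBP-like TTGCNNCAA in none, against 1.74%. A match of letters is a description of the window and not a bound site.

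The calcium-regulated ATP-Mg/phosphate carriers also divided by tissue. Slc25a23 read 836, 1220.1 and 781 in mutant livers, against 55.9, 45.0 and 64.8 in mutant muscles, and 1429, 1457 and 1294 in control livers, against 82.4, 63.1 and 67.1 in control muscles. Liver arrays were well above muscle arrays in both genotypes, with liver minus muscle differences of 3.74 in mutants (SE 0.17, adjusted p = 1.20e-11) and 4.02 in controls (SE 0.17, adjusted p = 4.43e-12). Slc25a24, another carrier of the same exchange, read 26.5, 15.5 and 15.0 in mutant livers, against 39.9, 30.5 and 66.7 in mutant muscles, and 13.7, 16.9 and 11.2 in control livers, against 50.2, 49.2 and 46.4 in control muscles. It was dim in every group and higher in muscle, without overlap within either genotype, with liver minus muscle differences of -0.79 in mutants (SE 0.24, adjusted p = 0.0110) and -1.12 in controls (SE 0.24, adjusted p = 0.000961). Its muscle level alone took it past the filter, which limits what these p-values show. Without muscle mutant 3 its difference in mutants was -0.56 (adjusted p = 0.0730). Slc25a25 read 216, 741 and 404 in mutant livers, against 367, 576 and 214 in mutant muscles, and 423, 1351 and 959.9 in control livers, against 155, 608 and 163 in control muscles. Its arrays spread widely in every group and overlapped between tissues, and its differences were 0.17 (SE 0.52, adjusted p = 0.804) in mutants and 1.65 (SE 0.52, adjusted p = 0.0137) in controls. Slc25a17, a carrier of the peroxisomal membrane, was higher in liver by 2.37 (SE 0.23, adjusted p = 1.62e-07) in mutants and 2.14 (SE 0.23, adjusted p = 5.67e-07) in controls.

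Of 10 tested amino acid and glutathione carriers, 6 were higher and 1 lower in liver in each genotype. The aspartate/glutamate carriers of the malate-aspartate shuttle, which brings NADH electrons into mitochondria, had a reciprocal pattern. Slc25a13 (citrin) read 1168, 1534 and 1186 in mutant livers, against 7.77, 5.63 and 3.34 in mutant muscles, and 1884, 1851 and 1743 in control livers, against 4.82, 6.55 and 4.63 in control muscles. In muscle it was too dim for a test of genotype, and it entered the tissue comparison through its liver level alone. Its liver minus muscle differences of 5.92 in mutants (SE 0.15, adjusted p = 6.04e-15) and 6.43 in controls (SE 0.15, adjusted p = 2.31e-15) therefore depended on the added constant, and with 64 in place of 16 they were 4.28 in mutants and 4.77 in controls. Slc25a12 (aralar) read 90.3, 55.9 and 88.6 in mutant livers, against 2219, 2275 and 2178 in mutant muscles, and 77.0, 90.0 and 137 in control livers, against 2407, 2668 and 2208 in control muscles. Here all the muscle arrays were above all the liver arrays, with liver minus muscle differences of -4.59 in mutants (SE 0.18, adjusted p = 1.70e-12) and -4.41 in controls (SE 0.18, adjusted p = 2.77e-12). Under alternative settings the differences shrank to as little as -2.32 in mutants and -2.71 in controls, still past the threshold. Its probe set 1436440_at was also brighter on every muscle array, while the dim 1444489_at overlapped between tissues.

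Slc25a15, the ornithine/citrulline carrier of the urea cycle, read 2631, 2216 and 2416 in mutant livers, against 173, 178 and 165 in mutant muscles, and 2448, 2312 and 2603 in control livers, against 171, 175 and 186 in control muscles. Liver and muscle did not overlap, with liver minus muscle differences of 3.69 in mutants (SE 0.11, adjusted p = 3.76e-14) and 3.67 in controls (SE 0.11, adjusted p = 3.88e-14). The glutamate carrier Slc25a22 read 656, 724 and 648 in mutant livers, against 125, 187 and 142 in mutant muscles, and 1052, 966 and 884 in control livers, against 136, 231 and 173 in control muscles. It was also without overlap, with liver minus muscle differences of 2.07 in mutants (SE 0.17, adjusted p = 3.06e-08) and 2.35 in controls (SE 0.17, adjusted p = 5.99e-09), while its relative Slc25a18 was too dim to test. Slc25a39 and Slc25a40 are related carriers needed for glutathione in mitochondria. Slc25a39 was higher in liver by 1.87 (SE 0.094, adjusted p = 4.30e-11) in mutants and 1.99 (SE 0.094, adjusted p = 1.79e-11) in controls. For Slc25a40 the differences were 0.18 (SE 0.22, adjusted p = 0.502) in mutants and -0.33 (SE 0.22, adjusted p = 0.214) in controls, with neither past the threshold.

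Of 6 tested carboxylate and carnitine carriers, 3 were higher in liver in each genotype, with 2 lower in mutants and 1 lower in controls. Slc25a1, the citrate carrier that exports acetyl units for lipid synthesis, read 1724, 1710.3 and 1462 in mutant livers, against 79.2, 82.8 and 108 in mutant muscles, and 2063, 1978 and 2085 in control livers, against 59.5, 85.7 and 70.3 in control muscles. Slc25a10, the dicarboxylate carrier that exchanges malate or succinate for phosphate, read 823, 952 and 915 in mutant livers, against 84.4, 70.8 and 70.9 in mutant muscles, and 1198, 1314 and 1242 in control livers, against 62.4, 92.3 and 55.1 in control muscles. Both were several times brighter on every liver array than on any muscle array. Slc25a1 had liver minus muscle differences of 3.97 in mutants (SE 0.14, adjusted p = 5.27e-13) and 4.56 in controls (SE 0.14, adjusted p = 8.18e-14). Slc25a10 had liver minus muscle differences of 3.32 in mutants (SE 0.15, adjusted p = 1.43e-11) and 3.91 in controls (SE 0.15, adjusted p = 1.69e-12). Slc25a11, the 2-oxoglutarate/malate carrier and partner of the aspartate/glutamate carriers, read 382, 504 and 409 in mutant livers, against 1445, 1406 and 1461 in mutant muscles, and 461, 587 and 633 in control livers, against 1710.3, 1841 and 1759 in control muscles. It lay the other way, with all muscle arrays above all liver arrays and liver minus muscle differences of -1.71 in mutants (SE 0.13, adjusted p = 8.84e-09) and -1.64 in controls (SE 0.13, adjusted p = 1.46e-08). Slc25a20, which imports acylcarnitines for fatty acid oxidation, was higher in liver by 2.02 (SE 0.18, adjusted p = 5.01e-08) in mutants and 1.83 (SE 0.18, adjusted p = 1.79e-07) in controls.

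**Figure D2:**
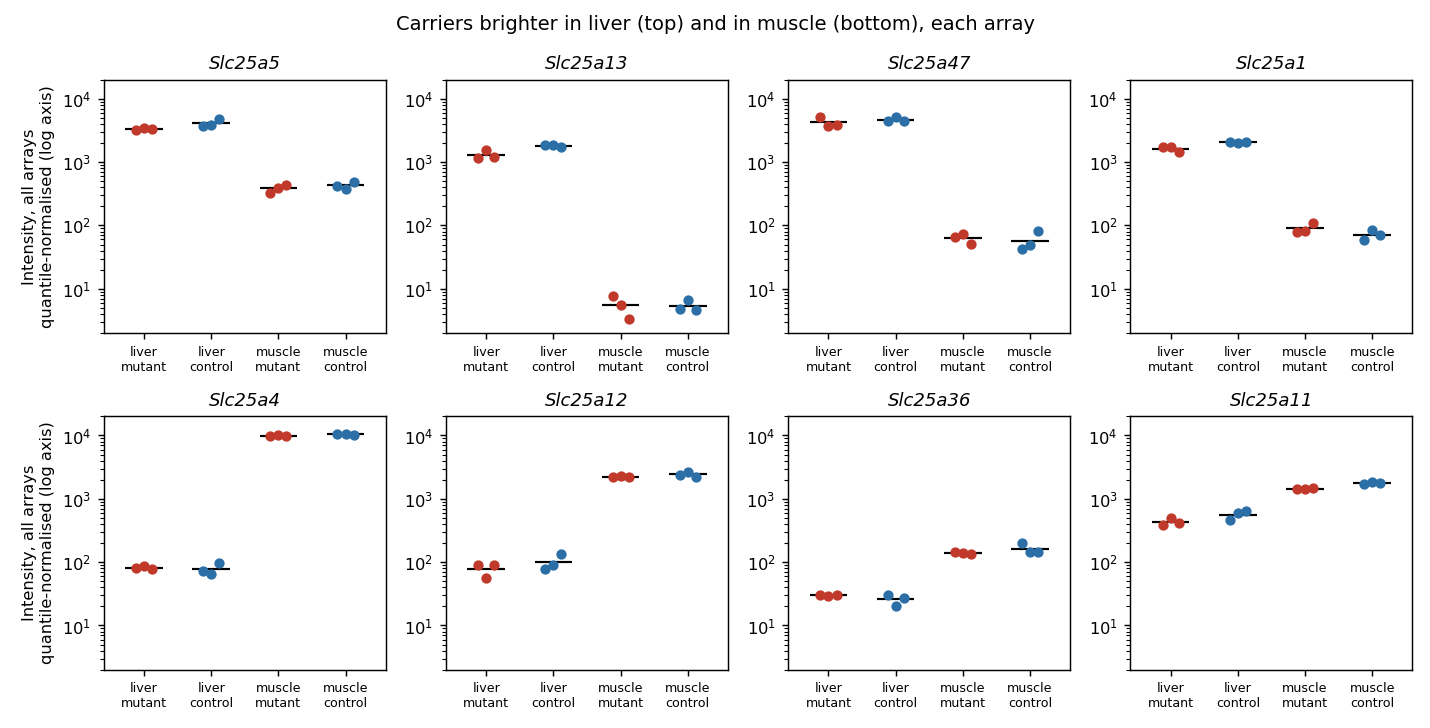
Intensity of each array on a log axis, normalised by quantiles over all arrays, for 4 carriers brighter in liver (top) and 4 brighter in muscle (bottom); points are arrays and bars are group means. In none of the 8 genes did a liver array overlap a muscle array.

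Slc25a47, a carrier known for its restriction to liver, read 5173, 3699 and 3893 in mutant livers, against 65.0, 72.1 and 50.9 in mutant muscles, and 4416, 5228 and 4385 in control livers, against 42.4, 49.2 and 81.8 in control muscles. Its liver minus muscle differences of 5.76 in mutants (SE 0.18, adjusted p = 1.25e-13) and 6.02 in controls (SE 0.18, adjusted p = 6.65e-14) were 5.07 in mutants and 5.29 in controls with a constant of 64, where they exceeded those of Slc25a13. Among nucleotide and cofactor carriers 3 of 7 were higher and 2 lower in liver in mutants, and 4 higher and 1 lower in controls. The pyrimidine nucleotide carriers Slc25a36 and Slc25a33 differed in direction. Slc25a36 read 30.0, 29.5 and 29.9 in mutant livers, against 145, 142 and 134 in mutant muscles, and 30.6, 20.3 and 26.9 in control livers, against 201, 143 and 142 in control muscles. Muscle was brighter on every array, with liver minus muscle differences of -1.77 in mutants (SE 0.18, adjusted p = 3.05e-07) and -2.08 in controls (SE 0.18, adjusted p = 4.33e-08). Slc25a33 was higher in liver by 1.09 (SE 0.17, adjusted p = 4.10e-05) in mutants and 0.54 (SE 0.17, adjusted p = 0.0130) in controls.

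Of the phosphate and iron carriers, Slc25a3 supplies phosphate for ATP synthesis and read 3388, 3307 and 3929 in mutant livers, against 7183, 7419 and 7112 in mutant muscles, and 3611, 4198 and 4174 in control livers, against 8003, 7914 and 7932 in control muscles. No liver array reached a muscle array, with liver minus muscle differences of -1.03 in mutants (SE 0.092, adjusted p = 5.95e-08) and -0.99 in controls (SE 0.092, adjusted p = 9.68e-08). The mitochondrial iron importers Slc25a28 (mitoferrin 2) and Slc25a37 (mitoferrin 1) lay in opposite directions. Slc25a28 read 142, 116 and 120.1 in mutant livers, against 249, 234 and 252 in mutant muscles, and 128, 192 and 135 in control livers, against 233, 274 and 268 in control muscles. Its muscle arrays were all the brighter ones, with liver minus muscle differences of -0.88 in mutants (SE 0.16, adjusted p = 0.000165) and -0.72 in controls (SE 0.16, adjusted p = 0.000987). Slc25a37 was higher in liver by 0.54 (SE 0.18, adjusted p = 0.0206) in mutants and 0.71 (SE 0.18, adjusted p = 0.00387) in controls. Of the 3 uncoupling protein-like carriers, Slc25a27 was lower in mutant liver than in mutant muscle, with a difference of -1.29 (SE 0.33, adjusted p = 0.00296), and none passed between control tissues. Slc25a27 read 7.19, 3.92 and 37.0 in mutant livers, against 56.9, 71.5 and 40.2 in mutant muscles. Its muscle level alone took it past the filter, which limits what this p-value shows. Of its dimmer probe sets in mutants, 1454230_a_at was brighter in muscle, while 1431201_at and 1458119_at overlapped.

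Other carriers also passed in both genotypes. Slc25a45 was higher in liver by 2.59 (SE 0.21, adjusted p = 2.02e-08) in mutants and 2.26 (SE 0.21, adjusted p = 1.10e-07) in controls. Slc25a38 was higher by 1.38 (SE 0.17, adjusted p = 3.84e-06) in mutants and 1.03 (SE 0.17, adjusted p = 8.97e-05) in controls, and Slc25a16 by 1.12 (SE 0.14, adjusted p = 3.96e-06) in mutants and 1.27 (SE 0.14, adjusted p = 9.36e-07) in controls. The coenzyme A carrier Slc25a42 and the branched-chain amino acid carrier Slc25a44 were also higher in liver in both genotypes.

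Some carriers passed in 1 genotype, and whether the genotypes differed in them is the test of the response given further on, which none of those tested passed. Between mutant tissues alone Slc25a41, Slc25a48, Slc25a51, Slc25a35 and Slc25a27 passed, with Slc25a41 at 0.89 (SE 0.31, adjusted p = 0.0242) in mutants and 0.36 (SE 0.31, adjusted p = 0.358) in controls. Between control tissues alone Slc25a25 and Slc25a32, a carrier of folate or FAD, passed, with Slc25a32 at 0.51 (SE 0.25, adjusted p = 0.0962) in mutants and 0.79 (SE 0.25, adjusted p = 0.0135) in controls. Slc25a41 and Slc25a27 were too dim in 1 tissue for that test. Their level in the other tissue alone took them past the filter, which limits what their tissue p-values show. Slc25a2, Slc25a29, Slc25a14, Slc25a26, Slc25a30, Slc25a34, Slc25a40, Slc25a46 and Slc25a53 passed in neither genotype.

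The comparison of tissues depended on the scaling. On the deposited scale the all-gene median moved to 0.55 in mutants and 0.48 in controls, the carriers' median to 1.05 in mutants and 1.15 in controls, and the split of called genes to 6928 higher and 2334 lower in mutants, against 4208 and 4020, and to 6409 higher and 2198 lower in controls, against 3807 and 4133. For carriers the split was then 27 higher and 5 lower in mutants and 25 higher and 5 lower in controls. On that scale Slc25a3 was at 0.013 in mutants (adjusted p = 0.931) and -0.29 in controls (adjusted p = 0.0537). Slc25a28 was then at -0.36 in mutants and -0.13 in controls (adjusted p = 0.0701 and 0.528). Slc25a24 did not pass in mutants on that scale (adjusted p = 0.215). After median centring Slc25a3 and Slc25a28 stayed lower in liver and past the threshold, with Slc25a3 at -0.44 in mutants and -0.72 in controls and Slc25a28 at -0.81 in mutants and -0.56 in controls. As the mean of its probe sets Slc25a3 was at -0.37 in mutants (adjusted p = 0.0550).

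In mutant liver only Slc25a10 passed the threshold among the 38 carrier genes tested, where 3.35% of all 13327 genes tested did and 1.03% were lower. It fell. Its values were 1079.5, 1259 and 1209 in mutant livers, against 1606, 1771 and 1672 in control livers. All mutant arrays were below all control arrays, and the means were 1182 ± 92.6 in mutants and 1683 ± 83.1 in controls (SD, n = 3 each). The difference was -0.51 (SE 0.12, adjusted p = 0.0477), or 0.704 times the control level, with a 95% interval of -0.77 to -0.24. The call sat at the threshold. Without mutant 2 the adjusted p in limma was 0.0424, and without any other array it ran between 0.107 and 0.204. With that 3′ to 5′ ratio as covariate it was 0.638 (difference -0.42), and without mutants 1 and 3 it was 0.567 (difference -0.41).

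Since Slc25a10 was the only carrier to pass, its RefSeq window of 250 bases before the start is shown (chr11:120491587-120491836, plus strand, GRCm38.p6). It held none of the 5 motifs searched, so no letters are in capitals.
Slc25a10: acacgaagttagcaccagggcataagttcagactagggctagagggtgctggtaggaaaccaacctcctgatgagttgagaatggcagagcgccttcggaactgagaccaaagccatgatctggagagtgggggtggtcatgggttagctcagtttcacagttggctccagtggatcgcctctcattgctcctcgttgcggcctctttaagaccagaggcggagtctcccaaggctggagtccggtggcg
Its 2 probe sets both lay lower in mutants. The other one, 1416955_at, read 469, 791 and 470.1 in mutant livers, against 1299, 1075 and 989 in control livers, again without overlap, with a difference of -0.97 (SE 0.21, adjusted p = 0.0465) when every probe set was tested on its own. In that fit 1416954_at, which stood for the gene, had an adjusted p of 0.0644.

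At an unadjusted p under 0.05 the carriers counted 13 of 38, or 34.2%, against 19.6% of all genes, with 9 lower (8.64% of all genes) and 4 higher (11% of all genes). In 12 of 38, or 31.6%, the mutant and control arrays did not overlap, against 24% of all genes, with 5 higher (13% of all genes) and 7 lower (11% of all genes). The median difference was -0.091 over the carriers and 0.01 over all genes, and the carriers' median turned to 0.031 on the deposited scale and 0.026 after median centring. By array, the median deviation of the carriers from the control mean was -0.083, -0.059 and -0.088 in the mutant arrays and -0.067, 0.072 and -0.011 in the control arrays, so the groups overlapped. The 6 other genes were too dim in liver to be tested: Slc25a14, Slc25a18, Slc25a24, Slc25a27, Slc25a31 and Slc25a54.

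**Figure D3:**
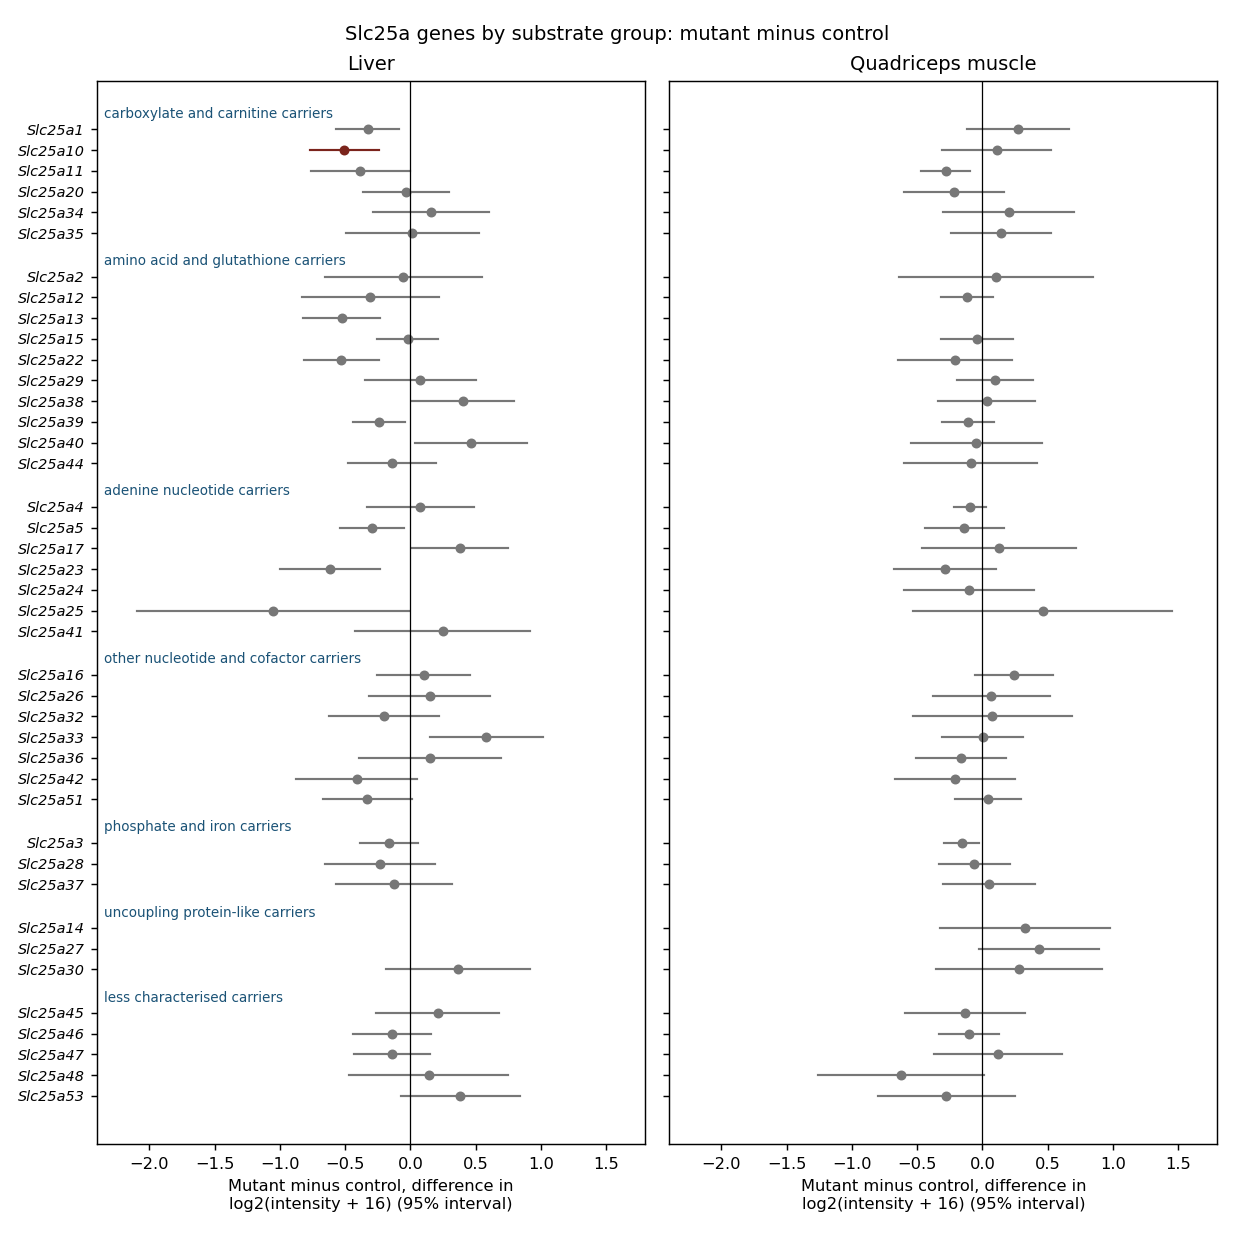
Mutant minus control difference in log2(intensity + 16) with its 95% interval, in liver (left) and muscle (right), for carriers grouped by substrate; the dark red point is past the adjusted threshold, and a gene without a point was too dim in that tissue. Slc25a10 in liver, at -0.51, is the only dark red point.

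Of the 6 tested carboxylate and carnitine carriers in liver, 1 fell, 0 rose, and 4 differences were below 0. Slc25a1 read 2363, 2343 and 1988 in mutant livers, against 2824, 2706 and 2859 in control livers. Mutant arrays were all below control arrays, yet the difference of -0.33 (SE 0.11, adjusted p = 0.132) did not pass. Slc25a11 read 484, 649.9 and 519.8 in mutant livers, against 591, 761 and 822 in control livers. The groups overlapped, with a difference of -0.38 (SE 0.17, adjusted p = 0.253). For the acylcarnitine importer Slc25a20 the difference was -0.04 (SE 0.15, adjusted p = 0.933), with an interval of -0.37 to 0.29.

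None of the 10 tested amino acid and glutathione carriers passed in liver, and 7 lay below 0. Slc25a13 read 1564, 2092 and 1589 in mutant livers, against 2589, 2539 and 2386 in control livers, a difference of -0.53 (SE 0.13, adjusted p = 0.0581). Slc25a22 read 853, 947 and 842 in mutant livers, against 1398, 1280.0 and 1162 in control livers, a difference of -0.53 (SE 0.13, adjusted p = 0.0536). In both, every mutant array was below every control array, and the adjusted p missed the threshold narrowly. Without mutant 2, which leaves the 2 mutants of high 3′ to 5′ ratio, the adjusted p was 0.0194 for Slc25a13 and 0.0458 for Slc25a22. Without any other array it ran from 0.104 to 0.239 for Slc25a13 and from 0.0805 to 0.209 for Slc25a22. With the ratio in the model the differences were -0.26 for Slc25a13 (adjusted p = 0.787) and -0.45 for Slc25a22 (adjusted p = 0.641), and without mutants 1 and 3 they were -0.25 and -0.41. Slc25a12, the other aspartate/glutamate carrier and the muscle-rich one, overlapped between the groups with -0.31 (SE 0.24, adjusted p = 0.533). Slc25a15 differed by -0.02 (SE 0.11, adjusted p = 0.946).

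The glutathione-linked carriers lay on opposite sides of 0. Slc25a39 read 6740.2, 7123 and 7822 in mutant livers, against 8068, 9098 and 8432 in control livers, without overlap and with a difference of -0.24 (SE 0.089, adjusted p = 0.171). Slc25a40 read 71.7, 72.2 and 61.0 in mutant livers, against 45.9, 43.4 and 45.6 in control livers. Here the mutants were the brighter ones in every case, with 0.47 (SE 0.19, adjusted p = 0.218). Slc25a38, the glycine carrier for haem synthesis, read 428, 373 and 389 in mutant livers, against 240.0, 367 and 292 in control livers. It too was brighter in all mutants, with 0.40 (SE 0.18, adjusted p = 0.240). None of these 3 differences passed.

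No adenine nucleotide carrier passed in liver, with 3 of 6 below 0. Slc25a23 read 1096, 1639 and 1023 in mutant livers, against 1938, 1982 and 1747 in control livers. Mutants 1 and 3 were far below the controls and mutant 2 just below them, with -0.62 (SE 0.17, adjusted p = 0.0801), and mutants 1 and 3 had the higher 3′ to 5′ ratios. Without mutant 2 the difference was -0.83 (adjusted p = 0.0158), and without another array it reached -0.48 and an adjusted p of up to 0.285. It was -0.22 with the ratio in the model (adjusted p = 0.883) and -0.20 without mutants 1 and 3 (adjusted p = 0.840). Slc25a25 read 266, 968 and 514 in mutant livers, against 539, 1825 and 1270.1 in control livers. The groups overlapped, and the difference of -1.05 (SE 0.47, adjusted p = 0.250) had an interval of -2.09 to -0.01. It was -1.56 without control 1, -0.59 without mutant 1 and -0.098 as the mean of the gene's probe sets. Slc25a5 read 4491, 4789 and 4573 in mutant livers, against 5094, 5344 and 6664 in control livers, without overlap, with -0.29 (SE 0.11, adjusted p = 0.179), which turned to 0.0043 with values as deposited and to 0.070 as the mean of its probe sets. Slc25a17 read 311, 337 and 378 in mutant livers, against 292, 216 and 270.2 in control livers, higher in every mutant, with 0.38 (SE 0.17, adjusted p = 0.241). Slc25a4 was dim in liver and differed by 0.08 (SE 0.18, adjusted p = 0.868).

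Among 7 nucleotide and cofactor carriers in liver none passed, and 4 lay above 0. Slc25a33 read 751, 605 and 748 in mutant livers, against 513, 558 and 341 in control livers. Every mutant was above every control, with 0.58 (SE 0.19, adjusted p = 0.131). Its relative Slc25a36 differed by 0.15 (SE 0.24, adjusted p = 0.800). Slc25a42 read 610.2, 683 and 679 in mutant livers, against 1079, 1046 and 599 in control livers. Its groups overlapped, with -0.41 (SE 0.21, adjusted p = 0.318). The 3 phosphate and iron carriers all lay below 0, from -0.23 to -0.13, and the 5 less characterised carriers ran from -0.14 to 0.38, with none past the threshold.

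**Figure D4:**
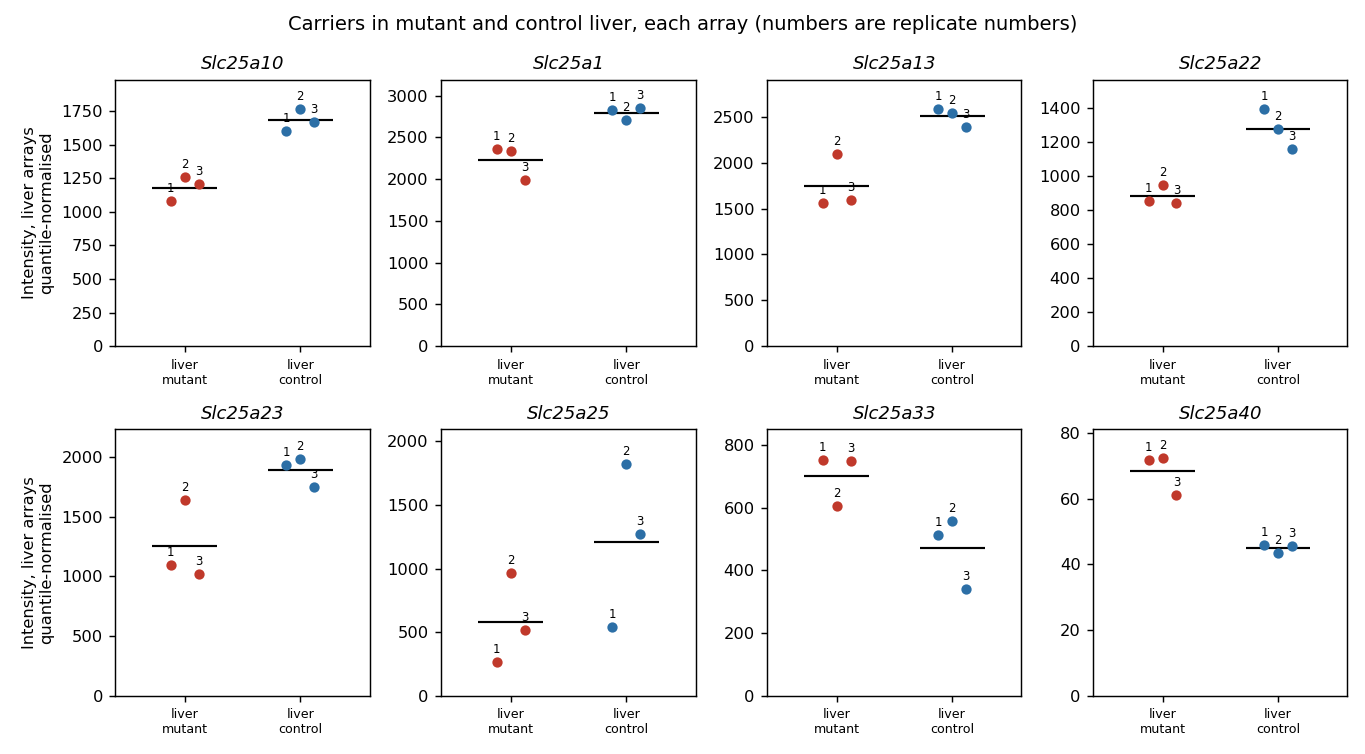
Intensity of each liver array, normalised by quantiles within liver, for 8 carriers in mutant and control. Numbers beside the points are replicate numbers, which were not used to pair the samples, and bars are means. Mutants lie below controls in Slc25a10, Slc25a1, Slc25a13, Slc25a22 and Slc25a23 and above them in Slc25a33 and Slc25a40, while Slc25a25 overlaps.

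Other measures moved with the liver groups. Mutant livers 1 and 3 had the high 3′ to 5′ ratios given above, and with that ratio as a covariate 2 genes of the whole table passed, neither of them a carrier. Of 7 macrophage markers 2 rose in mutant liver, where 2.33% of all genes tested did. These were Lyz2, by 1.28 (SE 0.20, adjusted p = 0.0181), and Tyrobp, by 1.34 (SE 0.16, adjusted p = 0.0169). The macrophage sum was 3041 to 3893 in mutants and 1900.0 to 2679 in controls, and no marker was at 0. Hepatocyte sums were lower in every mutant liver, as given above. Of 6 hepatocyte markers 1, Tat, fell by 0.75 on the log2 scale (adjusted p = 0.0431), where 1.03% of all genes tested fell. No adipocyte, endothelial or erythroid marker of the 9 tested passed. The part of these in the carrier differences was not tested.

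In muscle none of 39 carriers passed, where 0.0152% of 13131 genes did (2 genes, both higher). At an unadjusted p under 0.05 the carriers counted 2, or 5.13%, against 4.26% of all genes, and none passed under any of the alternative settings of limma. The arrays did not overlap in 6 of 39, or 15.4%, against 9.53% of all genes. The median difference was -0.041 over the carriers and -0.00015 over all genes. Slc25a13, Slc25a18, Slc25a31, Slc25a41 and Slc25a54 were too dim to test.

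Slc25a11 had the smallest p in muscle. It read 1062, 1037 and 1073 in mutant muscles, against 1247, 1342 and 1282 in control muscles. All mutants were below all controls, with -0.28 (SE 0.084, adjusted p = 0.994), unadjusted p = 0.00698. Slc25a3 read 5279, 5502 and 5228 in mutant muscles, against 6007, 5919 and 5937 in control muscles. It was likewise lower in every mutant, with -0.16 (SE 0.06, adjusted p = 0.994), unadjusted p = 0.0253. Slc25a4, the muscle-rich ADP/ATP exchanger, read 8073, 8394 and 8217 in mutant muscles, against 8801, 8945 and 8696 in control muscles. Its mutants were also all the lower ones, but the difference was -0.10 (SE 0.055, adjusted p = 0.994) with an interval of -0.22 to 0.02.

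The dim Slc25a48 read 1.62, 9.23 and 17.5 in mutant muscles, against 18.6, 20.8 and 27.2 in control muscles, lower in each mutant, with -0.63 (SE 0.29, adjusted p = 0.994). At this dimness the difference depended on the added constant, at -1.53 with 1 and -0.24 with 64. Slc25a27 (UCP4) read 45.6, 57.9 and 31.5 in mutant muscles, against 30.2, 23.9 and 31.7 in control muscles. The groups overlapped, with 0.43 (SE 0.21, adjusted p = 0.994). Slc25a16, tied to coenzyme A in mitochondria, read 130.4, 130.1 and 109 in mutant muscles, against 103, 100.1 and 102 in control muscles. Every mutant was above every control, with 0.24 (SE 0.13, adjusted p = 0.994).

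The other carriers with the smallest p in muscle all overlapped between the groups. Slc25a23 differed by -0.29 (SE 0.18, adjusted p = 0.994). For Slc25a1 the difference was 0.27 (SE 0.18, adjusted p = 0.994), and for Slc25a12 -0.12 (SE 0.09, adjusted p = 0.994). Slc25a20 read 479.7, 501 and 303 in mutant muscles, against 467, 496 and 503 in control muscles. Mutant 3 alone was far below the rest, the difference was -0.22 (SE 0.17, adjusted p = 0.994), and without that array it was 0.0045. Slc25a39 differed by -0.11 (SE 0.089, adjusted p = 0.994) and Slc25a53 by -0.28 (SE 0.24, adjusted p = 0.994). Without control 3 the Slc25a53 difference was -0.027.

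Whether the response differed between tissues was tested as the liver difference minus the muscle difference. None of the 36 carriers bright enough in both tissues passed, where 1.42% of 11842 genes did, and 3 had an unadjusted p under 0.05 (8.33%, against 15.5% of all genes). Slc25a10 gave -0.61 (SE 0.22, adjusted p = 0.181), from -0.51 in liver and 0.11 in muscle. Slc25a1 gave -0.60 (SE 0.20, adjusted p = 0.159), from -0.33 in liver and 0.27 in muscle. Slc25a33 gave 0.58 (SE 0.25, adjusted p = 0.269), from 0.58 in liver and 0.00031 in muscle. The liver fall of Slc25a10 was therefore not shown to differ from its muscle value.

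Probe sets of the same gene did not always give the same result in liver. With every probe set tested on its own, 1 of 73 carrier probe sets passed, against 2.05% of all probe sets, and in 10 of 18 genes with several tested probe sets the signs were mixed. Slc25a5 had 8. The 4 brightest differed by -0.29, -0.28, -0.21 and -0.16, and the 4 dimmer by 0.67, 0.58, 0.17 and 0.086, with none past the threshold. All 8 were higher in liver than in muscle in both genotypes.

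For Slc25a15 the probe set 1420966_at read 213, 551 and 173 in mutant livers, against 622, 509.9 and 748 in control livers. Mutants 1 and 3 were at a fraction of the controls and mutant 2 was among them, with -1.13 (SE 0.35, adjusted p = 0.123), while the brighter 1420967_at gave -0.02 (SE 0.11, adjusted p = 0.951). Between tissues the signs were mixed in 5 of 20 genes with several tested probe sets in mutants, and in 7 of 20 in controls. Among these, the 3 probe sets of Slc25a51, the NAD carrier, disagreed. In controls 1427425_at was higher in liver by 2.52 (SE 0.27, adjusted p = 6.62e-07), 1454712_at was lower, at -0.93 (SE 0.15, adjusted p = 8.50e-05), and 1433816_at gave -0.03 (SE 0.13, adjusted p = 0.893). In the same fit 57 of 82 carrier probe sets passed between mutant tissues and 52 of 82 between control tissues, against 50.3% and 47.1% of all probe sets.

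**Figure D5:**
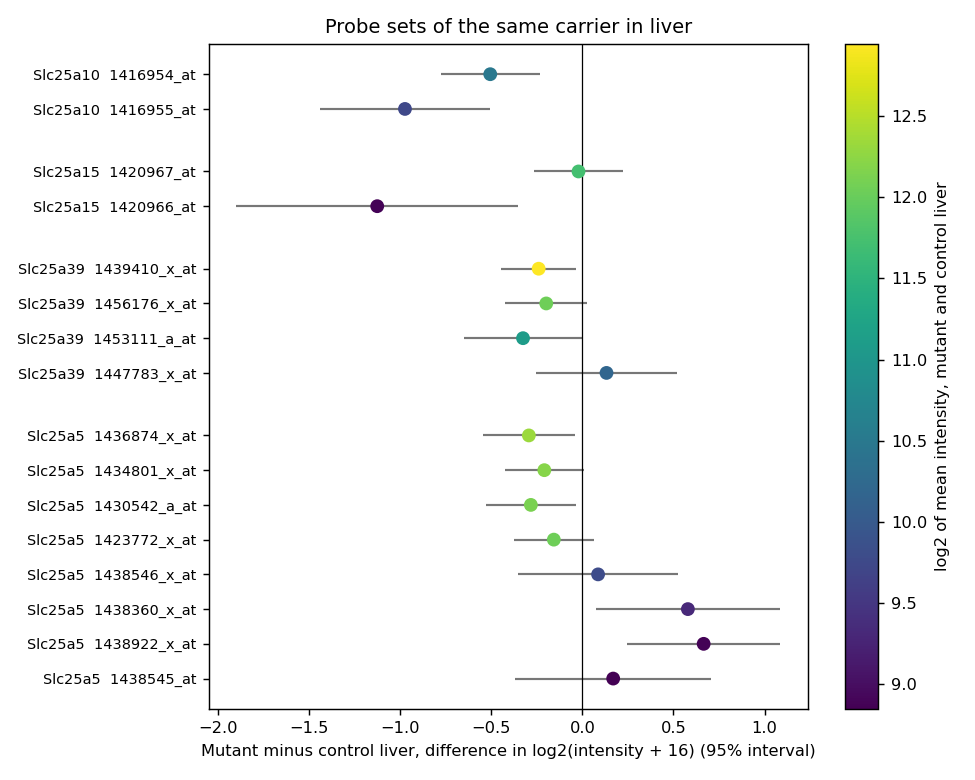
Mutant minus control liver difference of each tested probe set of 4 carriers, with 95% intervals and colour for brightness in liver, from a fit of every probe set on its own. Both Slc25a10 probe sets lie below 0, while those of Slc25a5 and Slc25a39 fall on both sides.

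Enzymes that work with the carriers, taken from lists of partners, were also read in liver. Of 6 NADH shuttle enzymes 3 fell (1.03% of all genes tested did) and all 6 lay below 0 (48.8% of all genes did). Got1, the cytosolic aspartate aminotransferase, read 2318, 2916 and 2217 in mutant livers, against 4708, 3834 and 5476 in control livers, a difference of -0.90 (SE 0.15, adjusted p = 0.0182). Got2, its mitochondrial form, read 4019, 4699 and 4010.5 in mutant livers, against 5846, 5929 and 6474 in control livers, a difference of -0.52 (SE 0.099, adjusted p = 0.0258). Mdh1, the cytosolic malate dehydrogenase, read 3106, 3661 and 3968 in mutant livers, against 5271, 5039 and 4910.2 in control livers, a difference of -0.51 (SE 0.11, adjusted p = 0.0354). In each of these the mutant arrays were all below the control arrays. Of 4 citrate export partners 1 fell, pyruvate carboxylase (Pcx), with -0.63 (SE 0.13, adjusted p = 0.0313), a transcript whose 3′ to 5′ ratio also differed between liver arrays. The falls of these enzymes are from the reported fit alone. With the 3′ to 5′ ratio as covariate 2 genes of the whole table passed, and the values of these enzymes in that fit are not given here. Without mutant 1, without control 2 or without the variance trend, 0 genes of the whole table passed in liver, so none of these enzymes did.

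None of 3 carnitine shuttle partners, 6 urea cycle partners, 17 other mitochondrial membrane transport genes or 3 carrier relatives under other symbols passed in liver. Cpt1a, which makes the acylcarnitines that Slc25a20 imports, read 2404, 3959 and 2288 in mutant livers, against 5417, 4895 and 4050.0 in control livers. Its difference was -0.76 (SE 0.19, adjusted p = 0.0601). In muscle none of these lists had a gene past the threshold. At an unadjusted p under 0.05 in limma, 3 of the 6 NADH shuttle enzymes were lower in mutant muscle and 0 higher. Of all genes tested in muscle, 2.53% were lower by that rule. The tissue differences of the 6 urea cycle partners were all past the threshold and above 0, the same side as the carrier Slc25a15. They ran from 1.30 to 8.72 in mutants and from 0.88 to 8.65 in controls. Of all genes tested, 28.8% were past the threshold and higher in liver in mutants, and 26% in controls. Otc, Asl and Arg1 were too dim in muscle for a test of genotype, so they entered this comparison through liver alone.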

How the data were processed

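Total RNA of liver and quadriceps muscle was hybridised to Affymetrix Murine 430 2.0 arrays, 3 per group, per the labels. The deposited values are linear probe set intensity; no source used here states the probe set algorithm or scaling. In all, 45037 probe sets remained after leaving out 64 controls: 34945 name 1 gene, 932 several and 9160 none, in GEO's platform annotation, with symbols updated through Entrez identifiers (34741 matched). Values were quantile normalised, within tissue for mutant against control and over all arrays for tissues, and log2 of intensity + 16 was tested with limma 3.58.1 (R 4.3.3) with a variance trend. A gene was tested in a tissue if its mean there was above the 40th percentile. The comparison of tissues took genes above it in at least 1 tissue. The response between tissues took genes above it in both. P-values were Benjamini-Hochberg adjusted over all genes tested. The steps were tested on simulated data with set changes. In liver they recovered 3.03% of 1.5-fold, 23.1% of 2-fold and 77.6% of 4-fold changes among genes tested. In muscle they recovered 4.69%, 36.1% and 67.2%. A gene that did not pass is therefore not shown to be unchanged. The simulated noise was independent between genes, and the simulated liver data gave 67 calls, where the reported fit gave 447. Recovery in the real data may thus differ from these rates. Promoter letters were read with Python 3.11.15.

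Named genes were those past the threshold, otherwise the 12 with the smallest p per tissue, the 8 with the largest difference in each direction between control tissues, and their isoforms. Members and lists were chosen with earlier results of these data known. Array number limits the precision.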

Additional observations from a re-analysis of the deposited data

How the results depend on the processing

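In liver the number of carriers past the threshold, 1 in the reported fit, was 0 with an offset of 64, without the filter, with values as deposited, with median centring, without the variance trend, with a gene's probe sets averaged, with the replicate block, with the 3′ to 5′ ratio as covariate and without liver mutants 1 and 3. It was 2 with all 12 arrays in 1 fit, 3 with a filter at the 60th percentile or array weights, 4 at a threshold of 0.1, and 0 to 4 when 1 array was left out, 4 without mutant 2 and 0 without any of the others. The median carrier difference, -0.091, was -0.14 with the 60th percentile filter, 0.031 as deposited, 0.026 with median centring, -0.030 with the mean of probe sets, -0.021 with every probe set on its own, and -0.12 to -0.033 with 1 array left out. Over all genes 447 passed in liver, against 222 without the filter, 297 as deposited, 162 with the mean of probe sets, 1028 at a threshold of 0.1, 997 with all 12 arrays, 11 with the block, 2 with the covariate, 0 without the trend or without mutants 1 and 3, and 0 to 738 with 1 array left out. For the response between tissues 168 passed, against 58 without the filter, 57 as deposited, 58 with median centring, 89 with the mean of probe sets, 102 with the block, 351 at a threshold of 0.1, 1 with the covariate, 0 without the trend and 12 to 391 with 1 array left out.

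Slc25a10 stayed below 0 in all 21 alternatives, from -0.74 to -0.36, and passed in 5 of them. These include the threshold of 0.1, a looser cut-off on the same fit that it could not miss. Without that setting it passed in 4 of 20. Slc25a5 in liver turned to 0.0043 as deposited and 0.070 with the mean of probe sets, Slc25a20 in muscle to 0.0045 without mutant 3 (-0.34 to 0.0045 with 1 array left out), and Slc25a3 between mutant tissues to 0.013 as deposited. Every probe set on its own gave 57 called between mutant tissues and 52 between control tissues, since more features are tested. No carrier passed in muscle or for the response between tissues under any alternative. Replicate numbers are shared by the groups, and the sample titles state no pairing. Deviations of same-numbered arrays correlated at -0.11 to -0.0088 in liver and 0.034 to 0.20 in muscle. Those of differently numbered arrays correlated at -0.076 to 0.11 in liver and -0.16 to 0.085 in muscle. With 3 arrays per group these values cannot decide whether the numbers pair the samples. The reported fit did not pair them, and the block left Slc25a10 at an adjusted p of 0.0994 (limma). Except where stated, the cause of a change was not tested. Dim probe sets near background limit what could be tested.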
